A study of Mus musculus with 6 samples.

Results

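The genes described here are 31 genes of GABA neurons, GABA receptors and neuronal chloride transport, chosen by symbol for their place in the pathway, by a rule that uses no measured value, although earlier results of these data were known when they were chosen. All 31 matched 1 Ensembl gene each among the 54232 genes listed in every library, and all 31 passed the filter on low counts that left 17299 genes for testing. The RNA came from cortical neurons of wildtype CD1 mice, an outbred stock. There were 3 groups of 2 libraries, with a repeat 1 and a repeat 2 in each. The control libraries carry PDL in their names. The PA libraries carry IKVAV, a laminin-derived peptide sequence presented here on a peptide amphiphile, and the PA + PS2 libraries carry IKVAV together with PEDOT-S, where PEDOT is a conducting polymer. All 6 libraries, those of the control too, carry peptide amphiphile as their treatment label, so the groups rest on titles and library names. The sources used here do not give age, time in culture, dose or whether the repeats were separate animals or platings, so p-values measure the spread between these libraries, which may be technical.

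GABA is the main inhibitory transmitter of the cortex. Inhibitory interneurons make it from glutamate with the glutamate decarboxylases, load it into vesicles and release it onto GABA-A receptors, which are chloride channels built of several subunits, and onto GABA-B receptors, which signal through G proteins. Whether an open GABA-A receptor inhibits a neuron depends on its chloride gradient, which the importer encoded by Slc12a2 (NKCC1) and the extruder encoded by Slc12a5 (KCC2) set, and the balance moves toward the extruder as neurons mature. Interneurons of the cortex are born in the ventral forebrain under Dlx factors, whereas receptor subunits and chloride transporters are used by excitatory and inhibitory neurons alike.

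Library totals ran from 30714311 to 33923681 counts, and a level in CPM is the number of counts per 1e6 of the library's total after TMM scaling. Mitochondrial genes took 1.20% to 1.94% of counts. The neuron markers Map2, Tubb3, Rbfox3 and Snap25 summed to 4351 to 4724 CPM in all libraries, and Map2 and Tubb3 made up most of each sum. The microglial list summed to 2.68 to 4.45 CPM and the vascular and meningeal list to 11.2 to 53.5 CPM. Of these lists P2ry12 and the endothelial marker Cldn5 were at or near 0, whereas Col1a1 was at 5.36 to 40.5 CPM. Astrocyte markers summed to 207 and 277 CPM in control, 225 and 403 in PA, and 197 and 239 with PA + PS2 (repeat 1 first, here and in every pair that follows). Slc1a2, at 163 to 215 CPM, made up most of each of these sums. Slc1a3 was at 27.1 and 61.0 CPM in control, 32.6 and 116 in PA, and 17.3 and 26.0 with PA + PS2. Of the 7 astrocyte genes 5 had a log2 fold change below 0 in PA + PS2 against the control and 2 above. Markers of progenitors and cycling cells summed to 110.0 and 208 CPM in control, 127 and 257 in PA, and 68.0 and 86.2 with PA + PS2. The higher of each pair of astrocyte and progenitor sums was repeat 2, and the PA + PS2 pair of the progenitor list was the lowest. In bulk RNA, fewer cells of a type and less RNA per cell cannot be told apart.

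Promoter sequences are shown for the genes on which the comparisons below turn: Gad1, which passed a test against PA, and 3 genes of the chromosome 5 cluster of GABA-A subunits, whose PA + PS2 levels all lay below the control. They are RefSeq sequences on GRCm38.p6, 250 bases before to 50 after the RefSeq start, written along the gene's strand, with capitals marking each match, on either strand, to GCGNGGGCG (the core bound by Egr factors), TAATTA (a homeodomain core) or TATAAA (the TATA box). Gad1 lies at chr2:70561879-70562178 on the plus strand, Gabrg1 at chr5:70842568-70842867 on the minus strand, Gabra4 at chr5:71658259-71658558 on the minus strand and Gabrb1 at chr5:71657671-71657970 on the plus strand. The RefSeq start of Gad1 lies inside its longer GENCODE gene at chr2:70553072-70602014. The Gabrb1 window shown ends before its GENCODE gene, which begins at chr5:71658113, and lies inside the Gabra4 gene.
Gad1: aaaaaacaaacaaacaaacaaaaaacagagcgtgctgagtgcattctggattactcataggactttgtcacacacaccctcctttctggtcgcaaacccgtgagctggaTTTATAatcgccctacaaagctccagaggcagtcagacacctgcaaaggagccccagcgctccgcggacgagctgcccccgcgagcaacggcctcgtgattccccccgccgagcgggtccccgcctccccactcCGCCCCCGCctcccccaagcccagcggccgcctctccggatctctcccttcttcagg
Gabrg1: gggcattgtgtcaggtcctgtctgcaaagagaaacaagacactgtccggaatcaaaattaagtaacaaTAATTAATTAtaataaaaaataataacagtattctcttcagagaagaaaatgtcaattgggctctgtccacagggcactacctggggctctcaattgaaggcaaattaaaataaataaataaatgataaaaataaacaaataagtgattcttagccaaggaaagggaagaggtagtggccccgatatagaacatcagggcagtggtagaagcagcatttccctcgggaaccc
Gabra4: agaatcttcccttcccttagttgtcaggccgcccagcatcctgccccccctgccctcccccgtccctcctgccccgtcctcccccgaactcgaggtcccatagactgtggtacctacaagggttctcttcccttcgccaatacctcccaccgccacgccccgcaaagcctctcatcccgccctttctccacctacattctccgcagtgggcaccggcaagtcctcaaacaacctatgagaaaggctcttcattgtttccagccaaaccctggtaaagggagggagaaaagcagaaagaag
Gabrb1: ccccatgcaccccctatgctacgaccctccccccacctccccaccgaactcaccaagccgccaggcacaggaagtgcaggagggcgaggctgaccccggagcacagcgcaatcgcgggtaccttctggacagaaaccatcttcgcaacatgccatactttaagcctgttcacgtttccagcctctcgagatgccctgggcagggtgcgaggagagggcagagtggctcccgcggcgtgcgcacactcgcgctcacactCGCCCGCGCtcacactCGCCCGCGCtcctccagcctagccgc

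The Gad1 window held an Egr core from base -7 to base 2 and a TATA box from -141 to -136, counted from 1 at the RefSeq start with no base 0. The Gabrb1 window shown held 2 Egr cores, at 9 to 17 and 25 to 33. Another Gabrb1 window, at chr5:71699682-71699981, held 0 Egr cores and 9 CpG dinucleotides. The Gabrg1 window held 2 TAATTA matches that share bases, at -182 to -177 and -178 to -173. None of these motifs was in the Gabra4 window. An Egr core was in 5.56% of 32817 RefSeq promoter windows of this length, TAATTA in 5.30%, TATAAA in 13.6% and the cyclic AMP response element TGACGTCA in 1.79%. Of the 24 of 31 genes with an entry, 5 held an Egr core, 2 TAATTA, 5 TATAAA and 0 TGACGTCA in any of their windows. Gabra3, Gabrb1, Gabrb2, Lhx6, Slc12a5 and Sp8 had several windows each. These counts are of genes and the percentages are of single windows, so the counts and percentages are not on the same footing. Abat, Gabrd, Slc12a2, Dlx6, Maf, Calb2 and Dlx5 had no entry. The windows shown differed in base content: there were 25 CpG dinucleotides in that of Gabrb1, 21 in Gad1, 12 in Gabra4 and 3 in Gabrg1, against a median of 7 over all windows. These matches describe letters only.

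**Figure D1:**
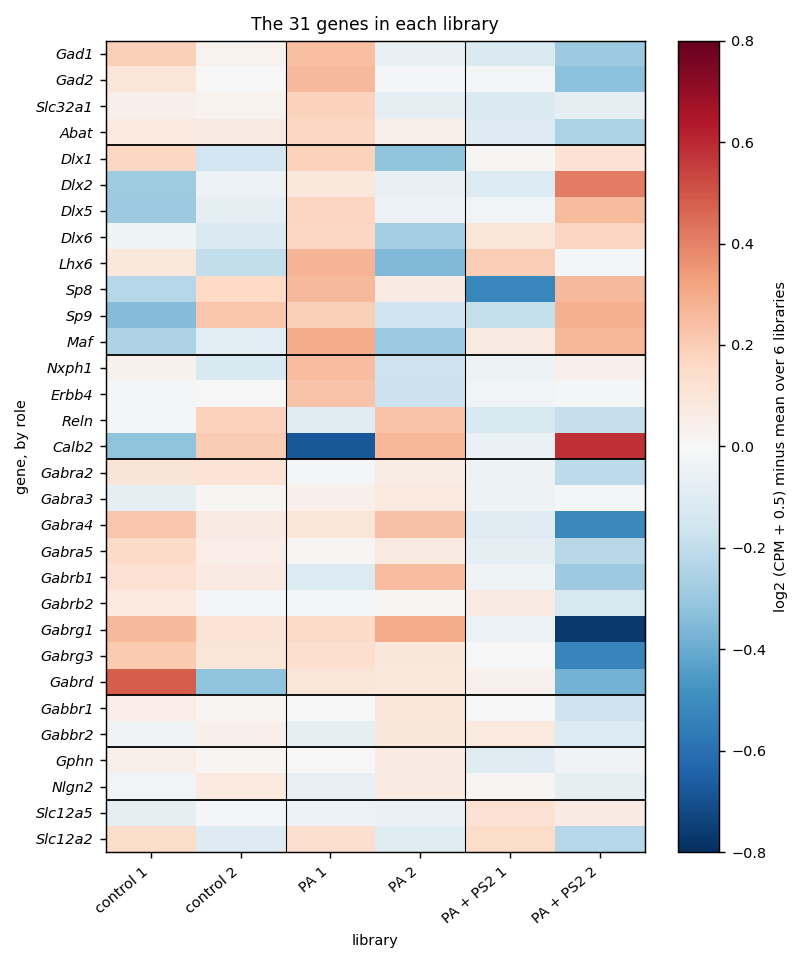
Each gene's level in each library, as log2 (CPM + 0.5) minus that gene's mean over the 6 libraries (colour, red above and blue below the mean), with genes in rows by role and libraries in columns. The rows of GABA synthesis, loading and breakdown and of GABA-A subunits, other than Slc32a1 and Gabra3, are bluest in PA + PS2 2. There Gabrg1, Gabra4 and Gabrg3 lie farthest below their means. The interneuron factor rows other than Sp8 change colour between repeats of PA.

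Levels were set per kilobase of exon to compare genes. The length counts all annotated exons of a gene, whichever transcripts were present, so the order depends on the annotation. The highest mean levels of the 31 genes over the 6 libraries were those of Nlgn2 and Gabbr1. Nlgn2 (neuroligin 2, the adhesion protein of inhibitory synapses) was at 90.2 CPM per kb and Gabbr1 (a GABA-B subunit) at 84.0. Among the 9 GABA-A subunit genes the order was Gabra2 (52.6 CPM per kb), Gabra5 (46.7), Gabrb2 (17.0), Gabrb1 (15.9), Gabra4 (12.5), Gabra3 (7.94), Gabrg3 (2.73), Gabrg1 (1.87) and Gabrd (0.881). The ranges over libraries overlapped for Gabra2 and Gabra5, for Gabrb2, Gabrb1 and Gabra4 in turn, and for Gabrg3, Gabrg1 and Gabrd in turn. They did not overlap between Gabra5 and Gabrb2, between Gabra4 and Gabra3 or between Gabra3 and Gabrg3. Gabra2 and Gabra5, alpha subunits abundant in the immature forebrain, were thus above the other listed subunits in every library, and Gabrd, a subunit of receptors outside the synapse, rested on 55 to 123 counts per library.

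**Figure D2:**
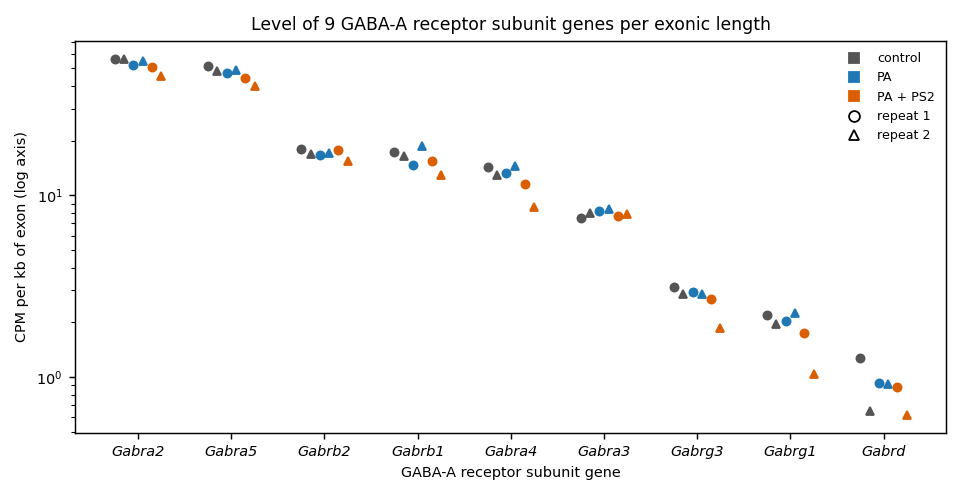
Level of the 9 GABA-A receptor subunit genes in CPM per kb of exon (log axis) in each library, with colour for the group and shape for the repeat. Gabra2 and Gabra5 lie highest, and the PA + PS2 2 triangle is the lowest point of every subunit other than Gabra3.

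The first comparison asks what PA alone changed. No gene of the 17299 and none of the 31 passed in PA against control (edgeR quasi-likelihood test, Benjamini-Hochberg adjusted p under 0.05). At an unadjusted edgeR p under 0.05 there were 103 genes, 0.595% of those tested, and 0 of the 31. DESeq2 also called 0 genes. The median log2 fold change of the 31 genes was 0.01, the same as that of all genes, and the standard error of a member had a median of 0.13. The PA and control libraries did not overlap for Dlx5 and Gabra3, which were higher in PA, and for Gabra2, which was lower, 2 of 31 higher where 12.1% of all genes were and 1 of 31 lower where 9.69% were.

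Within repeats the interneuron transcription factors went opposite ways in PA. All 8 were above the control in repeat 1, with a median log2 difference of 0.42, and 7 of 8 were below it in repeat 2, with a median of -0.16. Lhx6, which directs interneurons of the medial ganglionic eminence, was at 95.2 and 78.4 CPM in control, 109 and 70.2 in PA, and 103 and 89.3 with PA + PS2. Maf, used by the same lineage, was at 56.8 and 63.5 CPM in control, 83.3 and 55.1 in PA, and 71.1 and 81.4 with PA + PS2. PA 1 had the highest and PA 2 the lowest level of both genes. The 4 genes of GABA synthesis, loading and breakdown also changed sign against the control, with 0 of 4 below it in repeat 1 and 4 of 4 below in repeat 2. The GABA-A subunits went the other way, with 8 of 9 below the control in repeat 1 and 2 of 9 in repeat 2. The difference between the repeats could not be tested with 1 library of each kind.

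In PA + PS2 the genes of GABA synthesis, loading and breakdown and most GABA-A subunits lay below both other groups in each repeat. The mean was below the control mean by 19.6% for Gad1 and by 26.1% for Gabra4. With filterByExpr and edgeR, however, no gene passed without the repeat number in the model. With no filter, edgeR without the repeat number called Gad1 and Gabra4 in both PA + PS2 comparisons. Of the 31201 genes then tested, 425 passed against the control and 501 against PA. Gad1 (ENSMUSG00000070880), which encodes the larger glutamate decarboxylase, was at 380.1 and 339 CPM in control, 393 and 319.8 in PA, and 307 and 271 with PA + PS2. Both PA + PS2 libraries were below the other 4. The log2 fold change was -0.32 with an SE of 0.12 against the control (adjusted p = 0.67, edgeR) and -0.30 with an SE of 0.12 against PA (adjusted p = 0.58, edgeR). With the repeat number as a block the SE was 0.07 and Gad1 fell against PA (adjusted p = 0.049, edgeR) and missed the threshold against the control (adjusted p = 0.056, edgeR). The differences within repeats were -0.31 and -0.32 against the control and -0.36 and -0.24 against PA. Under the block, the call against PA held without PA 2 and was lost when PA 1 or any library of the control or of PA + PS2 was left out. With the block, 1.52% of all genes were called against PA, 228 lower and 35 higher, and 0.699% against the control.

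The other genes of GABA synthesis, loading and breakdown also lay lowest in PA + PS2, and none passed with all 6 libraries. In the group comparisons Abat and Gad2 were called only in fits with the block and a library left out, which leave 1 library in a group. Over all alternatives the log2 fold change of Abat ran from -0.33 to -0.18 against the control and from -0.35 to -0.21 against PA. That of Gad2 ran from -0.38 to -0.07 and from -0.45 to -0.15. Gad2, the second glutamate decarboxylase, was at 109.7 and 103 CPM in control, 123 and 101 in PA, and 101 and 81.6 with PA + PS2. Abat, the transaminase that breaks GABA down, was at 131 and 131 CPM in control, 139 and 128 in PA, and 116 and 104 with PA + PS2. Slc32a1, the vesicular GABA transporter, was at 59.98 and 59.5 CPM in control, 66.3 and 55.4 in PA, and 53.7 and 55.2 with PA + PS2. PA + PS2 did not overlap either other group for any of these genes, although for Gad2 and Slc32a1 its higher library was within 1 CPM of PA 2. The log2 fold changes against the control were -0.22, -0.25 and -0.13 (adjusted p = 0.86, 0.63 and 0.94, edgeR). All 4 genes of synthesis, loading and breakdown were below 0 in each repeat. Their median log2 fold change was -0.23 beside 0.01 for all genes, of which 48.1% were below 0.

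**Figure D3:**
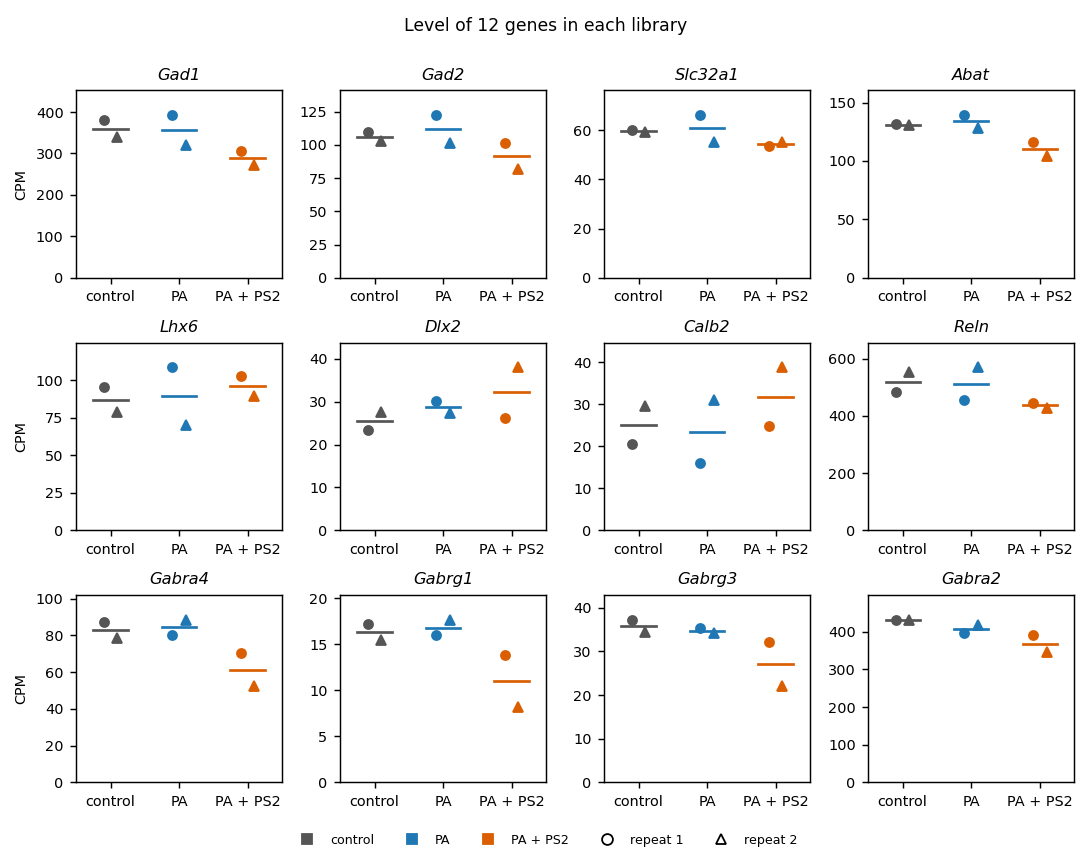
Level of 12 genes in CPM in each library (circle repeat 1, triangle repeat 2, bar the mean of the 2 libraries, axes from 0). For Gad1, Gad2, Slc32a1, Abat, Reln, Gabra4, Gabrg1, Gabrg3 and Gabra2 both PA + PS2 points lie below all control and PA points, whereas Lhx6, Dlx2 and Calb2 overlap between groups.

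Of the 9 GABA-A subunit genes, 8 had a log2 fold change below 0 in PA + PS2 against the control (median -0.26), 8 of 9 in repeat 1 and 9 of 9 in repeat 2. Against PA it was 9 of 9 (median -0.24), 7 of 9 in repeat 1 with a median difference of -0.08 and 9 of 9 in repeat 2 with a median of -0.46. Against the control the medians within repeats were -0.21 and -0.32. The 2 comparisons share the PA + PS2 libraries and are not separate evidence. Gabra4 (ENSMUSG00000029211, chr5:71569749-71658308), an alpha subunit of mature and extrasynaptic receptors, was at 87.2 and 78.7 CPM in control, 80.4 and 88.6 in PA, and 70.3 and 52.4 with PA + PS2. Both PA + PS2 libraries were the lowest of the 6. The log2 fold change was -0.44 with an SE of 0.14 against the control (adjusted p = 0.61, edgeR, and 0.14 with the block). With DESeq2 and the block both Gabra4 and Gad1 passed against the control (adjusted p = 0.041 and 0.012, DESeq2) and against PA (adjusted p = 0.021 and 0.025, DESeq2), where 1.61% and 2.1% of all genes passed.

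Gabrg1, a gamma subunit, was at 17.2 and 15.5 CPM in control, 15.9 and 17.7 in PA, and 13.8 and 8.15 with PA + PS2. Gabrg3, another gamma subunit, was at 37.3 and 34.4 CPM in control, 35.2 and 34.2 in PA, and 32.2 and 22.1 with PA + PS2. For both genes PA + PS2 1 was slightly below the other groups and PA + PS2 2 far below, with differences from the control of -0.31 and -0.89 for Gabrg1 and -0.21 and -0.63 for Gabrg3 on the log2 (CPM + 0.5) scale. The log2 fold changes were -0.57 (SE 0.23, adjusted p = 0.72, edgeR) and -0.40 (SE 0.17, adjusted p = 0.72, edgeR).

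Gabra2 was at 431 and 432 CPM in control, 396 and 417 in PA, and 389.6 and 346 with PA + PS2, with a log2 fold change of -0.23 (SE 0.08, adjusted p = 0.66, edgeR). Gabra5 was at 154 and 144 CPM in control, 139 and 146 in PA, and 132 and 119 with PA + PS2, with a log2 fold change of -0.25 (SE 0.08, adjusted p = 0.63, edgeR). Gabrb1, a beta subunit, was at 238 and 229 CPM in control, 202 and 259 in PA, and 213 and 178 with PA + PS2, so its PA + PS2 libraries lay below both controls but PA + PS2 1 was above PA 1. Gabrb2, Gabra3 and Gabrd overlapped between PA + PS2 and the control, with log2 fold changes of -0.06, 0.00 and -0.35 (SE 0.09, 0.10 and 0.39).

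The subunit genes lie partly in clusters, which the choice of genes did not use. Gabrg1, Gabra2, Gabra4 and Gabrb1 lie on chromosome 5 between positions 70751047 and 72149037, and all 4 had PA + PS2 libraries below both controls, with a median log2 fold change of -0.35. Gabra5 and Gabrg3 lie on chromosome 7 and had a median of -0.32. Gabrb2 on chromosome 11, Gabra3 on the X chromosome and Gabrd on chromosome 4 were those that overlapped the control. Of these, Gabrb2 and Gabra3 also lie near other GABA receptor subunit genes, which were not among the genes chosen. Gabra6 ends at position 42321072 and Gabrb2 begins at 42419757. Gabra3 lies between Gabre and Gabrq. Lying near another subunit gene thus did not separate the subunits below both controls from those that overlapped them. Gabra4 and Gabrb1 are divergent and their GENCODE genes overlap by 196 bases, and Gabra5 overlaps the antisense Gm9962. The sources used here do not state strandedness, so reads from the shared bases cannot be assigned. These clusters were described after their values had been seen.

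Counted over all 31 genes, both PA + PS2 libraries were below both controls for 13 of 31 genes, where 17.1% of all tested genes were, and above them for 4 of 31, where 16.6% were. Against PA the counts were 13 of 31 below, where 18.4% of genes were, and 1 of 31 above, where 16.7% were. At an unadjusted edgeR p under 0.05 there were 7 of 31 genes lower against the control (Gad1, Abat, Gabra2, Gabra4, Gabra5, Gabrg1 and Gabrg3), where 4.61% of genes were, and 0 higher, where 2.2% were. There were 4 of 31 lower against PA (Gad1, Abat, Gabra4 and Gabrg1), where 5.44% were, and 0 higher, where 2.26% were. Of the 31 genes 17 were below the control in both repeats and 8 above in both, beside 28.0% and 29.7% of all genes. After adjustment over all genes, 0 of 31 and 0 of 17299 passed in either comparison with edgeR without the block, whereas 1178 and 1332 genes had an unadjusted edgeR p under 0.05 and DESeq2 without the block called 130 (0.751%) and 200 (1.16%), none of the 31 among them. In the same libraries the progenitor and cycling list had 6 of 6 genes and the vascular and meningeal list 4 of 4 tested genes below 0 against the control, and the glutamatergic list had 5 of 6 above. Of the astrocyte list 5 of 7 were below 0 against the control (median -0.69) and 7 of 7 against PA (median -1.78). The neuron list had 2 of 4 below and 2 of 4 above in both comparisons. Its gene Snap25 was at 428 and 401 CPM in control, 396 and 418 in PA, and 386 and 358 with PA + PS2. The oligodendrocyte and precursor list split, 4 of 8 below and 4 of 8 above in both comparisons, and summed to 57.7 and 106, 57.4 and 149, and 59.8 and 90.4 CPM. Of its precursor genes Olig1 was at 12.5 and 37.9 CPM in control, 9.75 and 59.6 in PA, and 2.45 and 2.37 with PA + PS2. Mbp of the same list was at 21.3 and 21.9 CPM in control, 26.1 and 24.5 in PA, and 32.3 and 53.6 with PA + PS2. With the block Cspg4 fell in both comparisons and 1 gene of the list rose in each (edgeR). The part of these marker lists in the values of the 31 genes was not tested.

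**Figure D4:**
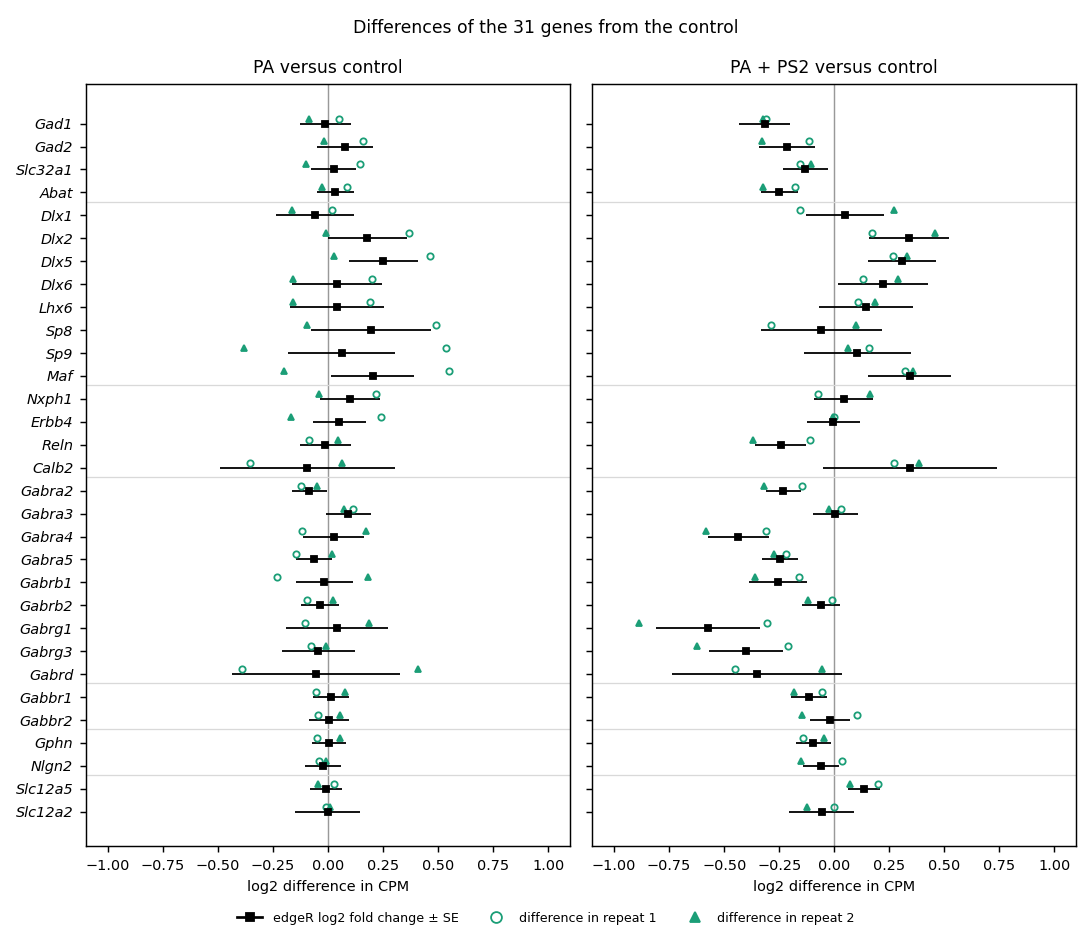
Log2 fold change with its SE from edgeR (squares and bars) and the log2 difference within repeat 1 (circles) and repeat 2 (triangles) for each of the 31 genes, for PA and for PA + PS2 against the same control libraries. In PA the circles and triangles of the interneuron factors lie mostly on opposite sides of 0. In PA + PS2 both symbols of the 4 genes of GABA synthesis, loading and breakdown lie below 0.

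The interneuron transcription factors did not share the lower levels of the genes of GABA synthesis, loading and breakdown. In PA + PS2 against the control 7 of 8 had a log2 fold change above 0 (median 0.18) and 0 of 8 passed. Dlx2, a ventral forebrain homeodomain factor upstream of Gad1, was at 23.3 and 27.6 CPM in control, 30.3 and 27.3 in PA, and 26.3 and 38.1 with PA + PS2. Dlx5 was at 16.8 and 19.6 CPM in control, 23.3 and 19.9 in PA, and 20.3 and 24.7 with PA + PS2. Dlx2 overlapped between all groups and Dlx5 lay above the control in both treated groups, with log2 fold changes in PA + PS2 of 0.34 (SE 0.18, adjusted p = 0.82, edgeR) and 0.31 (SE 0.16, adjusted p = 0.79, edgeR). Dlx6 and Maf also lay above both controls (0.22 and 0.34), whereas Dlx1, Lhx6, Sp9 and Sp8, a factor of caudal interneurons and other progenitors, overlapped them (0.05, 0.15, 0.10 and -0.06). Against PA the 8 factors were all below in repeat 1 and all above in repeat 2. Exons of Dlx1, Dlx6, Maf and Sp9 overlap antisense genes, as do those of Slc32a1, Reln and Gphn.

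The mean log2 level of the 4 genes of GABA synthesis, loading and breakdown was set against that of the 8 factors within each library. It was higher by 2.20 and 2.02 in control, 1.95 and 2.10 in PA, and 1.92 and 1.49 with PA + PS2. Both PA + PS2 libraries were the lowest, PA + PS2 1 by little and PA + PS2 2 by more. No test is given for this difference, since the genes were put together with their values known.

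Among the other interneuron genes, Reln, which encodes the secreted protein reelin made by Cajal-Retzius cells and some interneurons, was at 483 and 553 CPM in control, 455 and 571 in PA, and 447 and 428 with PA + PS2. Both PA + PS2 libraries were below the rest (log2 fold change -0.24, SE 0.12, adjusted p = 0.77, edgeR). Erbb4, the neuregulin receptor of interneurons, was at 232 and 234 CPM in control, 275 and 209 in PA, and 232 and 233 with PA + PS2, and Nxph1, a neurexin ligand, at 83.9 and 75.4, 97.6 and 73.2, and 79.7 and 84.3 CPM. The PA libraries were the extremes of both. Calb2, the calcium-binding protein calretinin, was at 20.5 and 29.6 CPM in control, 15.9 and 31.01 in PA, and 24.7 and 38.8 with PA + PS2. It overlapped between groups, and in every group repeat 2 was the higher.

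On the receiving side beyond GABA-A subunits, differences were small. Gabbr1 was at 677 and 659 CPM in control, 651 and 695 in PA, and 652 and 580.4 with PA + PS2, and its partner Gabbr2 was at 196 and 205, 189.9 and 213, and 211 and 185 CPM. Gphn, the gephyrin scaffold that holds receptors at inhibitory synapses, ranged from 83.5 to 93.8 CPM, and Nlgn2 from 496 to 551 CPM. PA + PS2 lay below the control libraries for Gabbr1 and Gphn and overlapped them for Gabbr2 and Nlgn2. The 4 log2 fold changes against the control were -0.12, -0.02, -0.09 and -0.06 (SE 0.08, 0.09, 0.08 and 0.08), and none passed.

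The chloride extruder and importer were set against each other within each library. Slc12a5 (ENSMUSG00000017740) was at 116 and 121 CPM in control, 118 and 118 in PA, and 133 and 128 with PA + PS2. Both PA + PS2 libraries were above the other 4, with a log2 fold change of 0.14 (SE 0.07) against the control and against PA (adjusted p = 0.82 and 0.74, edgeR). Slc12a2 was at 83.9 and 70.5 CPM in control, 83.4 and 70.9 in PA, and 83.8 and 64.6 with PA + PS2, so the groups overlapped and repeat 2 was the lower in each. Per exonic length, Slc12a5 exceeded Slc12a2 in all libraries, by ratios of 2.02 and 2.52 in control, 2.07 and 2.43 in PA, and 2.32 and 2.90 with PA + PS2. The size of these ratios depends on the annotated exons.

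The log2 ratio of Slc12a5 to Slc12a2 counts was 0.62 ± 0.23 (SD, n = 2) in the control, 0.62 ± 0.16 in PA and 0.82 ± 0.23 in PA + PS2. PA + PS2 exceeded the control by 0.20, by 0.20 in each repeat, and PA by 0.21, by 0.16 in repeat 1 and 0.25 in repeat 2. The ranges overlapped, and the two-sided exact permutation test gave p = 0.667 for both, where 2 against 2 libraries cannot go below 0.33. PA differed from the control by -0.01 (exact permutation p = 1). This test does not use the repeat number, although repeat 2 had the higher ratio in every group.

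**Figure D5:**
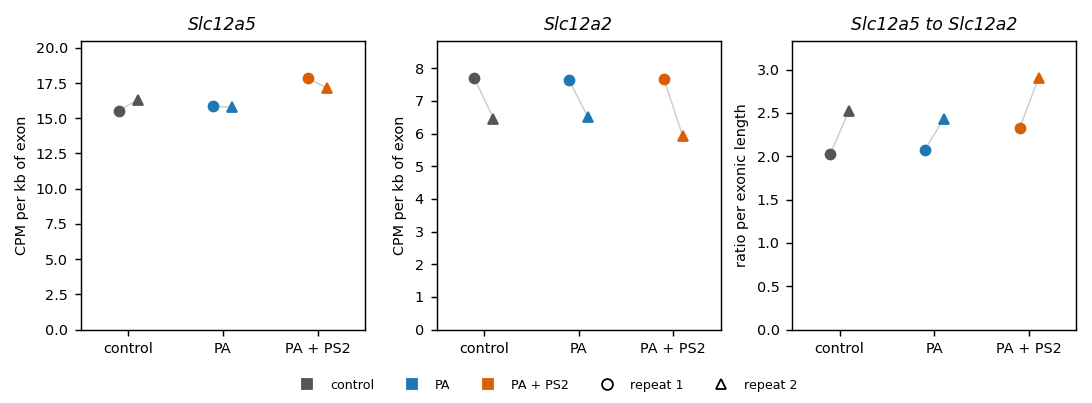
Level of Slc12a5 and Slc12a2 in CPM per kb of exon and their ratio in each library, with lines joining the 2 repeats of a group and axes from 0. Slc12a5 is highest in PA + PS2, Slc12a2 is lower in repeat 2 of each group, and the ratio runs from 2.02 to 2.90 with repeat 2 above repeat 1 in each group.

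The repeat number separated some of these genes. With the group as a term, edgeR called 846 genes between repeat 2 and repeat 1, 4.89% of those tested, and 4 of the 31. Calb2 was higher in repeat 2, with a log2 fold change of 0.71 (SE 0.10, adjusted p = 0.0017, edgeR), and repeat 2 was higher in 3 of 3 groups. Lhx6 was lower by a log2 fold change of -0.37 (SE 0.08, adjusted p = 0.022, edgeR), Slc12a2 by -0.29 (SE 0.06, adjusted p = 0.024, edgeR) and Gad1 by -0.21 (SE 0.05, adjusted p = 0.044, edgeR), each in 3 of 3 groups. Calb2 was called with each library left out in turn. Leaving out either control library ended the other 3 calls, that of Slc12a2 was also lost without either PA + PS2 library, and that of Gad1 without either PA library or PA + PS2 2 and under the filter that asks for 50 counts or more in 2 libraries. Beside Calb2, all 4 Cajal-Retzius markers were above 0 in repeat 2, summing to 3.01 and 6.79 CPM in control, 2.78 and 8.61 in PA, and 3.57 and 12.3 with PA + PS2, and 3 of 4 passed, with Trp73 at a log2 fold change of 2.08 (adjusted p = 0.00066, edgeR). Their part in the Calb2 difference was not tested.

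Other genes of the pathway were taken from 4 lists. Of 28 other interneuron markers 27 were tested. Without the block 0 passed in any group comparison, and with it 1 rose against the control and 1 rose and 1 fell against PA. Cnr1, the cannabinoid receptor of a class of basket cells that excitatory neurons carry too, was at 269 and 278 CPM in control, 278 and 281 in PA, and 356 and 355 with PA + PS2. Both PA + PS2 libraries stood well above the other 4. It rose with the block by 0.38 against the control and 0.35 against PA (adjusted p = 0.022 and 0.021, edgeR), while without the block its adjusted p was 0.38 and 0.32. Tac1, a neuropeptide precursor, was at 2.501 and 1.85 CPM in control, 3.55 and 2.78 in PA, and 1.18 and 0.779 with PA + PS2, and fell with the block against PA (log2 fold change -1.70, adjusted p = 0.021, edgeR). By CPM not corrected for exon length, the most abundant of the list beside Cnr1 were Zeb2, at 241 and 268, 307 and 247, and 317 and 322 CPM, and the neuropeptide gene Sst, at 201 and 193, 265 and 189, and 195 and 189.8 CPM. Between repeats Nr2f2 and Npas3 were higher in repeat 2 (log2 fold changes 0.69 and 0.46, adjusted p = 0.00066 and 0.049, edgeR).

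Of 7 genes of GABA transport and metabolism 6 were tested, of 22 other receptor subunits and partners 18, and of 19 other genes of chloride transport and its kinases 18. None passed in a group comparison, with or without the block, and their median log2 fold changes in PA + PS2 against the control were -0.03, -0.03 and -0.02. By CPM not corrected for exon length, which does not rank genes against each other, the high ones included the glutamine carriers Slc38a1 (436 to 473 CPM) and Slc38a2 (186 to 225), then Nptn (242 to 268), Gabarapl1 (176 to 190.4) and Mdga1 (141 to 211), and Clcn3 (237 to 257), Wnk2 (215 to 253) and Wnk1 (197 to 229). Between repeats, Plcl1 was higher in repeat 2 by a log2 fold change of 0.41 (adjusted p = 0.015, edgeR). Shisa7, a GABA-A receptor partner, was lower (-0.43, adjusted p = 0.0028, edgeR), as were the chloride channel Clcn2 (-0.60, adjusted p = 0.0037, edgeR) and the anion exchanger Slc4a3 (-0.39, adjusted p = 0.0046, edgeR). Slc4a3 and Clcn2 were thus lower in repeat 2, as was Slc12a2, but their list as a whole was not. Of its 18 tested genes 9 were below 0 and 9 above, with a median log2 fold change of -0.004. Among all 17299 genes 511 were called lower in repeat 2.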

How the data were processed

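RNA-seq was analysed from 6 libraries of mouse cortical neurons, 2 each of control, PA and PA + PS2, grouped by title. The deposited values are raw counts, whole numbers for each Ensembl gene, per the file headers. The submitters' processing notes name mm10, DESeq2 1.14.1, HTSeq 2.0.2, STAR 2.7.5 and cutadapt 4.2, without roles. The sources used here give no settings, annotation release or strandedness. The labels' protocols name a total RNA kit and the molecule label polyadenylated RNA. Symbols, coordinates and exonic lengths come from GENCODE M21 on GRCm38, and promoters from RefSeq.

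The 31 genes, the pathway and marker lists and the tests were chosen with earlier results of these data known. Named genes are the 31, pathway genes past the threshold without or with the block, and the 3 most abundant of each pathway list. Some genes that this rule names are not reported here. Counts were tested in edgeR 4.0.16 (R 4.3.3; TMM, filterByExpr, robust quasi-likelihood F test, 1 model over 6 libraries, 3 residual degrees of freedom), with p-values adjusted over 17299 genes and a threshold of 0.05. SEs were derived from the fold change and F statistic. Without the block edgeR's biological coefficient of variation was 16.7%; the block brought it to 9.57%. Differences within repeats are of log2 (CPM + 0.5). Scripts were tested on simulated data.

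Repeat differences of the control correlated at 0.44 with those of PA and 0.43 with those of PA + PS2, and those of the treated groups at 0.26 with each other, all over 0.1. The repeat numbers were therefore taken as pairing libraries, for the block and for the differences within repeats. The p-values between groups that are given without mention of the block do not use this pairing. The pairing comes from the data, over 2 pairs per comparison: no label names a litter, batch or day that they share. Library names carry the same T number in all repeat 1 libraries and a different one in each repeat 2 library, so whether the repeat 2 libraries belong together is uncertain, and blocked p-values rest on that. The block leaves 2 residual degrees of freedom. Replicates were separate libraries by their counts, whose chi-square was 15.5 to 22.3 times its degrees of freedom. Alternatives were RLE factors, library totals, no filter, at least 50 counts in 2 libraries, DESeq2 1.42.0, the 2 groups alone, the block, DESeq2 with the block, and each library left out, without and with the block.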

Additional observations from a re-analysis of the deposited data

How the results depend on the processing

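Of the 31 genes, 0 passed in any group comparison with RLE factors, library totals, at least 50 counts in 2 libraries, DESeq2 or the 2 groups alone, all without the block. None of the 31 genes called in an alternative had there the opposite sign to the fit with all libraries and no block. Signs did vary over the alternatives for genes that passed in at least 1 of them: Maf in PA against control (log2 fold change -0.22 to 0.55), and against PA Maf (-0.22 to 0.56), Lhx6 (-0.17 to 0.45), Dlx1 (-0.13 to 0.40) and Gabrb1 (-0.49 to 0.03) in PA + PS2. PA against control gave 2 calls over all genes with no filter and 1 with the block and DESeq2. For PA + PS2 against control there were 121 with the replicate block, 425 with no filter, 130 with DESeq2 and 279 with the block and DESeq2, with Gad1 and Gabra4 as the 2 of the 31 genes under no filter and under the block with DESeq2. Against PA there were 263 with the block (1 of the 31), 501 with no filter (2), 200 with DESeq2 and 364 with the block and DESeq2 (2). Between repeats there were 1486 with no filter, under which 31201 genes were tested. With a library left out, 18245 to 18459 genes were tested. Leaving out libraries without the block gave 0 to 29 calls (29 without PA + PS2 1) for PA + PS2 against control, 0 to 13 (13 without PA + PS2 1) against PA, and 221 to 1489 with 1 to 8 of the 31 between repeats. With the block, PA against control gave 0 to 35 and, without PA 2, 1 of the 31 (Maf). PA + PS2 against control then gave 137 without control 1, 4 without control 2 and 15 without PA + PS2 2, with 0 of the 31 each, and 874 without PA 1 (10 of the 31), 816 without PA 2 (10) and 942 without PA + PS2 1 (9). Against PA it gave 295 without control 1, 250 without control 2 and 32 without PA + PS2 2, with 0 of the 31 each, and 1008 without PA 1 (7), 196 without PA 2 (2) and 1021 without PA + PS2 1 (8). The cause was not tested. The block in edgeR with all libraries changed no call among the 31 genes other than that of Gad1 against PA. The log2 ratio of Slc12a5 to Slc12a2 in PA + PS2 minus control ran from 0.04 to 0.36 with a library left out. With 2 libraries a group, the SE of the 31 genes had a median of 0.13 on the log2 scale, and Gabrd, at 55 to 123 counts, was among the least precise.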
